A study of Mus musculus with 15 samples.

Results

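The genes described here encode 8 transcription factors of 4 families: the nuclear receptors Hnf4a and Hnf4g, the forkhead factors Foxa1, Foxa2 and Foxa3, the Onecut factor Onecut1 (hepatocyte nuclear factor 6), and the RFX factors Rfx6 and Rfx3. They were chosen by name, and all 8 were found among the 19938 genes with a transcript cluster (the set of probes that the array reads for a gene) of a single gene symbol. Each had 1 such cluster. The samples were mouse pancreatic islet cells on a mixed B6 and BALB/C background, hybridised to 15 Affymetrix Mouse Gene 1.0 ST arrays from 500 ng of total RNA each. Of these, 5 arrays were titled Pdx1-deficient (genotype label Pdx1-deficient (PKO), described as reprogrammed cells, taken 5 days after tamoxifen), 5 alpha and 5 beta, the last 2 groups from mice 2 months old whose cells carried the RosaYFP reporter and were sorted on it. No label gives the age or full genotype of the Pdx1-deficient mice, or says whether their cells were sorted. The genotype label of the alpha arrays is RIP-CreER; Pdx1fl/+, RosaYFP, with a Cre driven by an insulin promoter and 1 floxed Pdx1 allele. That of the beta arrays is glucagon-Cre; RosaYFP, so these labels pair each driver with the other cell type, and groups were taken from the titles. The labels do not say whether the arrays of a group hold RNA of different mice, so a p-value here covers just the spread among these arrays, and that spread may be technical.

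The HNF, FOXA and RFX factors form a network that the pancreas shares in large part with the liver. FOXA proteins open closed chromatin ahead of other factors, HNF4 proteins bind DNA as dimers and drive genes of nutrient metabolism, Onecut1 acts early in the pancreatic progenitor and duct lineage, and RFX proteins bind the X-box motif. Rfx6 acts in the endocrine lineage below Neurog3 and maintains mature beta cells, and Rfx3 also drives genes of the primary cilium. Mutations of HNF4A cause a form of maturity-onset diabetes of the young, and mutations of RFX6 cause neonatal diabetes with gut malformation in humans. Pdx1, the homeodomain factor that the label Pdx1-deficient names, is required for pancreas formation and for mature beta-cell function.

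Hnf4a is read from 2 starts. The upstream one is the main start in pancreatic islets, where a homeodomain and a Onecut site have been described, and the downstream one is used mainly in liver. The 250 bases before each start, with those before the listed starts of Rfx6 and Rfx3, whose signals moved together, are shown to let these sites be seen. Sequences are from RefSeq (build GRCm38.p6), 5′ to 3′ on the gene's strand, and 7 of the 8 genes matched the table, with 10 windows. Capitals mark matches, on either strand, to the homeodomain core TAATNA, the Onecut motif ATTGAT, the forkhead motif TGTTTAC, the RFX half-site GTTGCC and the HNF4 half-site AAAGTCCA. In the 4 windows shown no match overlapped another.
Hnf4a upstream start, chr2:163506607-163506856, + strand: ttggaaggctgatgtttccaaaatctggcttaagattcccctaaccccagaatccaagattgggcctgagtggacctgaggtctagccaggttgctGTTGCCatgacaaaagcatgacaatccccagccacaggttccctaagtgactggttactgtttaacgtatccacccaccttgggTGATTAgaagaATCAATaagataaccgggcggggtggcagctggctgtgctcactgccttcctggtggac
Hnf4a downstream start, chr2:163546905-163547154, + strand: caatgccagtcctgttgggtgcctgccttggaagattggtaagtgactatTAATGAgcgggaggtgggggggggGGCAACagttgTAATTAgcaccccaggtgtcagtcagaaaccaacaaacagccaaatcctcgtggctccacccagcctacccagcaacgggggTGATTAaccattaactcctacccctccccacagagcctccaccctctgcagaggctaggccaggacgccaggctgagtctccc
Rfx6, chr10:51685268-51685517, + strand: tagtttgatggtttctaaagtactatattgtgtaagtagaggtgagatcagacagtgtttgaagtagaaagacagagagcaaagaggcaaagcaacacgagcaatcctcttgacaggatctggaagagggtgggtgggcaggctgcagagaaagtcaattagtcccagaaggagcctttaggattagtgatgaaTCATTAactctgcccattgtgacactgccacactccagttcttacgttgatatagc
Rfx3, chr19:28011167-28011416, - strand: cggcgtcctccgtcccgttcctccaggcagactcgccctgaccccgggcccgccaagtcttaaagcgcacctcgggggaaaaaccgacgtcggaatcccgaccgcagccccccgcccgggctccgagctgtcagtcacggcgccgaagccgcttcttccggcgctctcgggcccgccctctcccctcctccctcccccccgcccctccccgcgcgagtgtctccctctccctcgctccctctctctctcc

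The upstream Hnf4a window held an RFX half-site that began 154 bases before the start, a homeodomain core at 70 bases and a Onecut match at 59 bases. The downstream Hnf4a window held 3 homeodomain cores and an RFX half-site. The Rfx6 window held a homeodomain core 56 bases before the start, and no searched letters matched in the Rfx3 window. Of all 32851 windows of this length, 24.3% held the homeodomain core, 6.72% the Onecut motif, 10.4% the RFX half-site, 3.17% the forkhead motif and 1.01% the HNF4 half-site. A match is a description of the letters and not a bound site. The array signal was 1 value for Hnf4a, and whether its probes tell the starts apart was not known.

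Signals were read as log2 values from their range (2.11 to 13.45), and a difference of 1 is 2-fold where that reading holds. The medians of the arrays lay between 5.88 and 6.05. Differences were tested with limma over all 19938 genes, and a gene passed at a Benjamini-Hochberg adjusted p under 0.05. Pdx1 itself read 9.12, 7.83, 7.68, 6.53 and 7.59 in Pdx1-deficient replicates 1 to 5, 7.27 to 8.21 in alpha arrays and 8.85 to 9.33 in beta arrays. The array labelled Pdx1-deficient replicate 1 thus lay within the beta range, and the comparisons it enters were repeated without it. The arrays of the groups overlapped for 2 defining hormones: Gcg, the glucagon gene, read 12.35 to 12.79 in Pdx1-deficient, 12.49 to 12.87 in alpha and 12.15 to 12.51 in beta arrays, and Ins2, an insulin gene, read 11.90 to 12.12 in Pdx1-deficient, 11.86 to 12.09 in alpha and 11.77 to 11.98 in beta arrays. Both read near the top of the scale (highest value 13.45), where a difference may be understated. Like signals there need not mean like amounts of RNA, and this was not tested. Alpha-cell markers as a list ran as the titles say in most arrays. Of 7 measured, 4 (Slc7a2, Smarca1, Etv1 and Irx2) rose and 0 fell in alpha against beta arrays by limma. The mean of the 7 was 9.05 to 9.41 in Pdx1-deficient and 8.67 to 9.10 in beta arrays. In alpha arrays it was 9.22 in replicate 2 and 9.97 to 10.19 in the others. Alpha replicate 2 thus lay within the Pdx1-deficient range and near the highest beta array. Slc7a2, Smarca1 and Etv1 passed in all 23 alternatives and Irx2 in 13. Mean signal of the 9 measured acinar markers was 10.2 in alpha replicate 5 and 5.88 to 7.17 in the other alpha arrays, 5.92 to 6.93 in Pdx1-deficient and 6.02 to 6.93 in beta arrays. The 6 measured duct markers averaged 6.28 to 6.52 in Pdx1-deficient, 6.16 to 6.45 in alpha and 6.25 to 6.64 in beta arrays. Single markers of other cells also passed in alpha against beta arrays: Rgs5 (stromal, 1.07, limma adjusted p = 0.0365) and Rbp4 (delta and PP cells, 1.04, limma adjusted p = 0.0462) were higher, and Cldn7 (duct, -0.75, limma adjusted p = 0.0476) and Bhlha15 (acinar, -1.16, limma adjusted p = 0.00632) were lower. Bhlha15 was also lower in Pdx1-deficient against beta arrays (-1.09, limma adjusted p = 0.0316). The rest of the acinar list did not follow Bhlha15. In alpha minus beta it was the only 1 of the 9 below 0, with a list median of 1.18. In Pdx1-deficient minus beta 5 of the 9 lay below 0, with a median of -0.05. Of the 6 duct markers 3 lay below 0 in alpha minus beta. Rgs5 was not alone in its list. Of the 6 stromal markers 0 lay below 0 in alpha minus beta (median 0.23) and 0 in Pdx1-deficient minus beta (median 0.24). Their mean was 6.018 to 6.287 in Pdx1-deficient, 5.76 to 6.73 in alpha and 5.69 to 6.016 in beta arrays. Of the 5 delta and PP markers 0 lay below 0 in alpha minus beta (median 0.091) and 3 in Pdx1-deficient minus beta (median -0.024). The part of other cells in the levels that follow was not tested. In bulk samples, fewer cells of a type and less RNA per cell cannot be told apart.

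None of the 8 factors passed in any of the 3 pairwise comparisons. Between Pdx1-deficient and beta arrays 0 of 8 passed by limma, against 1.09% of all genes, and 1 of 8 (Foxa2) had an unadjusted p under 0.05, against 21.8% of all genes. Between alpha and beta arrays 0 of 8 passed, against 4.04% of all genes, and 0 had an unadjusted p under 0.05, against 20.7%. Between Pdx1-deficient and alpha arrays 0 of 8 passed, against 0% of all genes, and 0 had an unadjusted p under 0.05, against 6% of all genes. In two-sided exact permutation tests over all splits of the 10 arrays compared, 0 of the 24 unadjusted p-values lay under 0.05 (the smallest possible was 0.00794). The arrays of the groups overlapped for all 8 genes in all 3 comparisons, while 5.96%, 6.34% and 0.637% of all genes did not overlap. The median difference of the 8 was 0.058 for Pdx1-deficient minus beta, 0.082 for alpha minus beta and 0.040 for Pdx1-deficient minus alpha, beside medians over all genes of 0.061, 0.041 and 0.024. Without Pdx1-deficient replicate 1, the differences of the 8 from beta ran between -0.35 (Hnf4g) and 0.47 (Rfx3), and 0 of 8 passed.

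**Figure D1:**
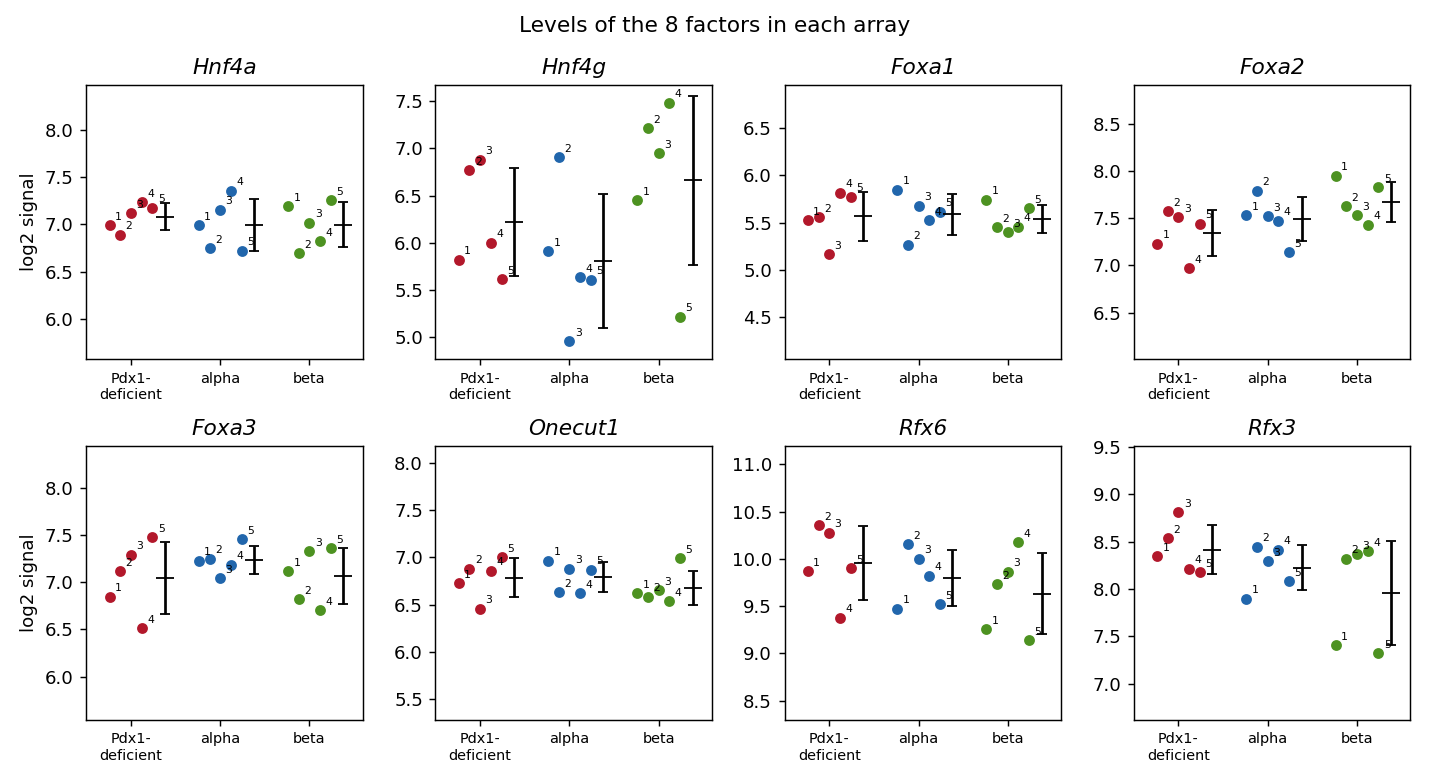
Log2 signal of each factor in every array (points, numbered by replicate; the vertical axes have the same length in log2 units but different positions), with the mean and SD of each group of 5 (bars). The groups overlap in every panel, Hnf4g has the widest spread, and beta replicates 1 and 5 are the lowest 2 beta arrays for Rfx6 and Rfx3.

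Hnf4a, the receptor at the centre of the network, had group means of 7.08 ± 0.14 in Pdx1-deficient, 6.99 ± 0.27 in alpha and 6.99 ± 0.24 in beta arrays (SD, n = 5 each). It read 6.99, 6.89, 7.12, 7.23 and 7.17 in Pdx1-deficient replicates 1 to 5, 6.99, 6.74, 7.15, 7.36 and 6.72 in alpha replicates and 7.19, 6.69, 7.02, 6.82 and 7.25 in beta replicates. All Pdx1-deficient arrays lay inside the ranges of the alpha and the beta arrays. The difference was 0.087 for Pdx1-deficient minus beta (95% interval -0.21 to 0.38, limma adjusted p = 0.713), -0.00055 for alpha minus beta (-0.29 to 0.29, limma adjusted p = 0.998) and 0.087 for Pdx1-deficient minus alpha (-0.21 to 0.38, limma adjusted p = 0.985). With array medians subtracted the first was -0.012. These intervals run from 0.867-fold to 1.30-fold for Pdx1-deficient over beta and from 0.816-fold to 1.22-fold for alpha over beta.

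Hnf4g, the paralog of Hnf4a that is prominent in gut and kidney, varied most. It read 5.82, 6.77, 6.88, 6.003 and 5.61 in Pdx1-deficient replicates 1 to 5, 5.91, 6.91, 4.96, 5.64 and 5.61 in alpha replicates and 6.45, 7.21, 6.95, 7.48 and 5.22 in beta replicates. Several of these values, among them alpha replicate 3 and beta replicate 5, lay below the median of all cluster means (5.98). Such values may hold much background, and a fold may be understated. Of the beta arrays 4 lay above 4 of the alpha arrays, and in each of these groups 1 array went the other way, alpha replicate 2 high and beta replicate 5 low. Its SD within groups, 0.74, was higher than that of 98.4% of genes (median over all genes 0.21). The mean was 5.80 ± 0.71 (SD, n = 5) in alpha arrays and 6.66 ± 0.89 (SD, n = 5) in beta arrays, a difference of -0.86 (SE 0.42, 95% interval -1.76 to 0.037, limma adjusted p = 0.259). Without beta replicate 5 it was -1.22 (limma adjusted p = 0.0918), without alpha replicate 2 -1.13 (limma adjusted p = 0.107) and without alpha replicate 3 -0.65 (limma adjusted p = 0.47). Pdx1-deficient arrays, at 6.22 ± 0.57 (SD, n = 5), lay between the other groups: they differed from beta arrays by -0.45 (-1.34 to 0.45, limma adjusted p = 0.519) and from alpha arrays by 0.41 (-0.48 to 1.31, limma adjusted p = 0.976). The Pdx1-deficient minus beta value was -0.81 without beta replicate 5 and -0.24 without beta replicate 4, and -0.30 without Pdx1-deficient replicate 5. The alpha minus beta interval holds both 0 and a difference of over 2-fold.

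Foxa2, the forkhead factor that regulates insulin secretion genes in beta cells and glucagon gene expression in alpha cells, had the lowest p of the 8 in the comparison of Pdx1-deficient with beta arrays. It read 7.23, 7.57, 7.51, 6.97 and 7.44 in Pdx1-deficient replicates 1 to 5, 7.53, 7.79, 7.52, 7.47 and 7.14 in alpha replicates and 7.95, 7.63, 7.53, 7.43 and 7.83 in beta replicates. Pdx1-deficient replicates 1 and 4 lay below every beta array, and the other 3 lay within the beta range. The difference was -0.33 (SE 0.14, 95% interval -0.63 to -0.028, unadjusted limma p = 0.0342, limma adjusted p = 0.197, exact permutation p = 0.0635) for Pdx1-deficient minus beta, with means of 7.34 ± 0.25 in Pdx1-deficient and 7.67 ± 0.21 in beta arrays (SD, n = 5 each). It was -0.18 for alpha minus beta (-0.48 to 0.12, limma adjusted p = 0.48) and -0.15 for Pdx1-deficient minus alpha (-0.45 to 0.15, limma adjusted p = 0.976). Over all 23 alternatives the Pdx1-deficient minus beta difference stayed negative, between -0.43 and -0.24, and its limma adjusted p between 0.124 and 0.431.

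Foxa1, which acts together with Foxa2 in pancreas formation, had a mean over the 15 arrays below the median of all cluster means (5.98), so its signal may hold much background and a fold may be understated. It read 5.53, 5.56, 5.17, 5.82 and 5.77 in Pdx1-deficient replicates 1 to 5, 5.85, 5.27, 5.68, 5.53 and 5.62 in alpha replicates and 5.74, 5.45, 5.40, 5.46 and 5.65 in beta replicates. The beta arrays lay within the range of each other group. Differences were 0.028 for Pdx1-deficient minus beta (-0.25 to 0.31, limma adjusted p = 0.906), 0.047 for alpha minus beta (-0.23 to 0.33, limma adjusted p = 0.861) and -0.019 for Pdx1-deficient minus alpha (-0.30 to 0.26, limma adjusted p = 0.995), and with array medians subtracted the first 2 were -0.071 and -0.039.

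Foxa3, the family member best known from liver, ran from 6.51 in Pdx1-deficient replicate 4 to 7.48 in Pdx1-deficient replicate 5, so that a single group held both extremes. Its means were 7.05 ± 0.38 in Pdx1-deficient, 7.23 ± 0.15 in alpha and 7.07 ± 0.29 in beta arrays (SD, n = 5 each). Alpha replicate 5, the array with the high acinar signal, had the highest alpha value, 7.46. Differences were -0.017 for Pdx1-deficient minus beta (-0.39 to 0.35, limma adjusted p = 0.956; 0.020 when quantile normalized again), 0.17 for alpha minus beta (-0.20 to 0.54, limma adjusted p = 0.598) and -0.18 for Pdx1-deficient minus alpha (-0.55 to 0.18, limma adjusted p = 0.975). Without alpha replicate 5 the alpha minus beta value was 0.11.

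Onecut1 had the narrowest spread within groups (SD 0.18). It read 6.46 to 7.01 in Pdx1-deficient arrays, 6.62 to 6.96 in alpha arrays and 6.53 to 6.99 in beta arrays, where beta replicate 5 was the high one and the other 4 read at most 6.65. Means were 6.79 ± 0.21 in Pdx1-deficient, 6.79 ± 0.16 in alpha and 6.68 ± 0.18 in beta arrays (SD, n = 5 each). Differences were 0.11 for Pdx1-deficient minus beta (-0.14 to 0.36, limma adjusted p = 0.568), 0.12 for alpha minus beta (-0.13 to 0.37, limma adjusted p = 0.581) and -0.0074 for Pdx1-deficient minus alpha (-0.26 to 0.24, limma adjusted p = 0.997).

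Rfx6, the endocrine RFX factor, read 9.87, 10.36, 10.28, 9.38 and 9.90 in Pdx1-deficient replicates 1 to 5, 9.47, 10.16, 10.0025, 9.82 and 9.52 in alpha replicates and 9.26, 9.73, 9.87, 10.17 and 9.14 in beta replicates. Pdx1-deficient replicates 2 and 3 were above every beta array, and replicate 4 was below 3 of them. Means were 9.96 ± 0.39 in Pdx1-deficient, 9.80 ± 0.30 in alpha and 9.63 ± 0.43 in beta arrays (SD, n = 5 each). The difference was 0.32 for Pdx1-deficient minus beta (-0.15 to 0.79, limma adjusted p = 0.378), 0.16 for alpha minus beta (-0.31 to 0.63, limma adjusted p = 0.697) and 0.16 for Pdx1-deficient minus alpha (-0.31 to 0.63, limma adjusted p = 0.982). The first interval reaches from 0.904-fold to 1.73-fold with the values as deposited, and it covers just the spread among these arrays. With array medians subtracted the Pdx1-deficient minus beta value was 0.22 (limma adjusted p = 0.646), so the lower limit is not fixed. Without beta replicate 5 the Pdx1-deficient minus beta value was 0.20 and the alpha minus beta value 0.037.

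Rfx3 followed the same order of groups. It read 8.35, 8.54, 8.81, 8.21 and 8.18 in Pdx1-deficient replicates 1 to 5, 7.90, 8.45, 8.29, 8.42 and 8.08 in alpha replicates and 7.40, 8.32, 8.37, 8.40 and 7.32 in beta replicates. Beta replicates 1 and 5 lay below all other arrays, and the other 3 beta arrays lay within the Pdx1-deficient range. Means were 8.42 ± 0.26 in Pdx1-deficient, 8.23 ± 0.23 in alpha and 7.96 ± 0.55 in beta arrays (SD, n = 5 each). The difference was 0.46 for Pdx1-deficient minus beta (-0.013 to 0.92, limma adjusted p = 0.241, exact permutation p = 0.19), 0.26 for alpha minus beta (-0.20 to 0.73, limma adjusted p = 0.511) and 0.19 for Pdx1-deficient minus alpha (-0.28 to 0.66, limma adjusted p = 0.976). Without beta replicate 5 the first difference was 0.30 (limma adjusted p = 0.399), and without beta replicate 1 it was 0.32 (limma adjusted p = 0.418). The alpha minus beta value was 0.10 without beta replicate 5 and 0.13 without beta replicate 1.

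**Figure D2:**
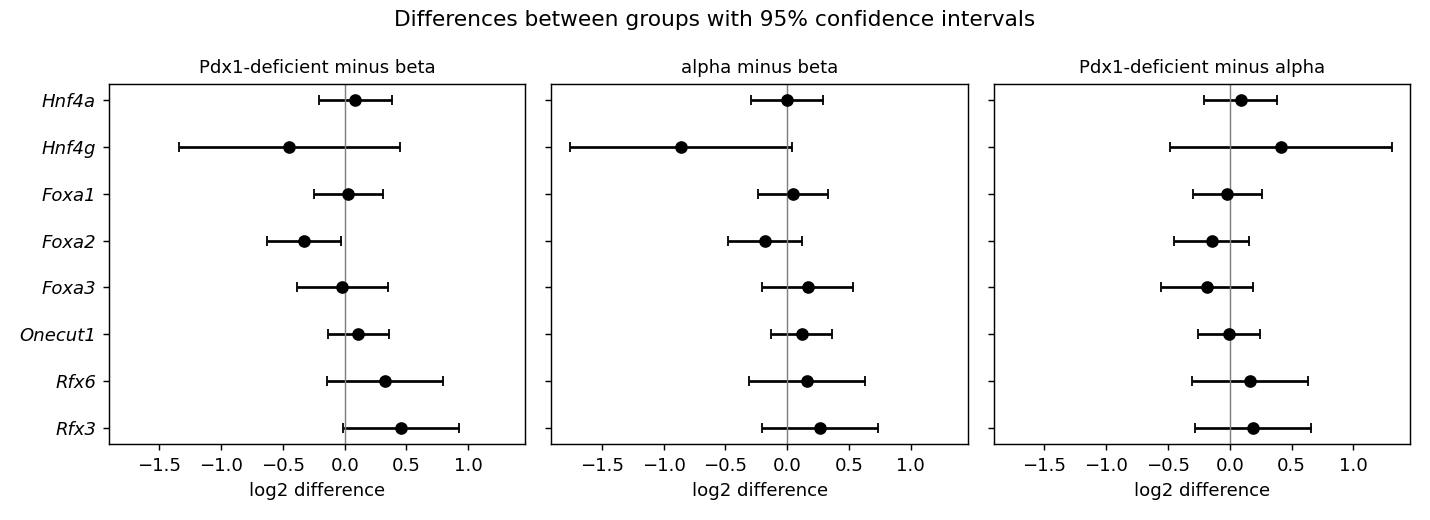
Log2 differences of the 8 factors in each pairwise comparison (points) with 95% confidence intervals from limma (bars). Of the 24 intervals, the one of Foxa2 for Pdx1-deficient minus beta leaves out 0 (-0.63 to -0.028), and none passed the adjusted threshold.

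In order of mean level, Rfx6 and Rfx3 ran Pdx1-deficient, alpha, beta from high to low, Foxa2 ran beta, alpha, Pdx1-deficient, and Hnf4g ran beta, Pdx1-deficient, alpha. Hnf4a ran Pdx1-deficient, beta, alpha, Foxa3 alpha, beta, Pdx1-deficient, and Foxa1 and Onecut1 both alpha, Pdx1-deficient, beta. No neighbours in these orders differed beyond their spread. The comparisons against beta share the same 5 beta arrays, so their directions are not separate evidence.

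Across the arrays most pairs of factors ran together weakly or in opposite directions, and Rfx6 and Rfx3 ran together most closely. They had a Pearson r of 0.87 and a Spearman rho of 0.84 over the 15 arrays, the highest of the 28 pairs, whose r ran from -0.72 (Hnf4g and Onecut1) with a median of -0.14. After group means were removed the r of Rfx6 and Rfx3 was 0.85, and without beta replicates 1 and 5, the arrays farthest from the median in Rfx6, it was 0.80. Of 18408 genes compared with Rfx6, 4 had a higher r than Rfx3, and of the same number compared with Rfx3, 71 had a higher r than Rfx6. Foxa1 and Onecut1 had an r of 0.76, which 337 of 18408 genes exceeded for Foxa1. Arrays share RNA quality, labelling and the authors' normalization, so these values describe the arrays.

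**Figure D3:**
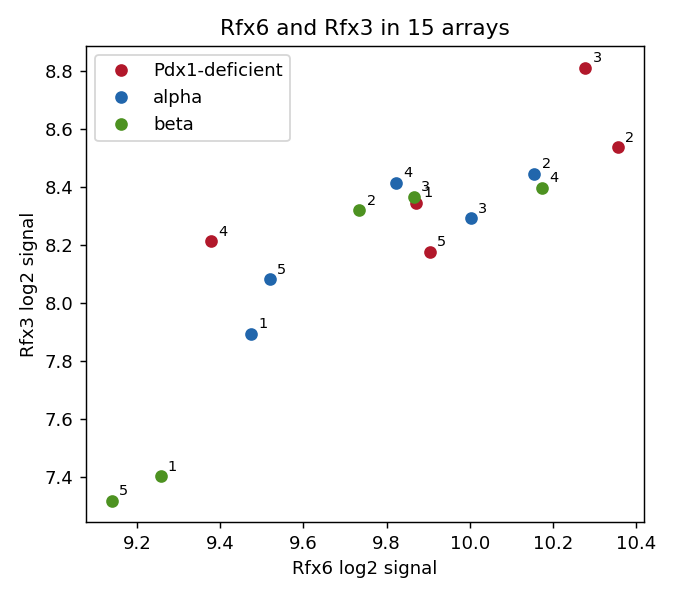
Log2 signal of Rfx3 (vertical) against Rfx6 (horizontal) in the 15 arrays, coloured by group and numbered by replicate. Beta replicates 1 and 5 lie at the low end (Rfx3 7.40 and 7.32) and Pdx1-deficient replicates 2 and 3 at the high end (Rfx3 8.54 and 8.81).

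Beta replicates 1 and 5 stood apart from the other beta arrays for most of the factors. They were the 2 lowest beta arrays for Hnf4g, Rfx6 and Rfx3 and the 2 highest for Hnf4a, Foxa1 and Foxa2, which makes 6 of 8 factors (75%). Over all genes these arrays were the lowest or the highest pair for 37.4%, the largest share of the 10 pairs of beta arrays, where the other 9 had 13.1% to 23.8%. Their correlation over all clusters was 0.968, and that of beta replicates 2 and 4 was 0.979. The labels give no difference between these replicates.

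Relatives of the 8 factors did not pass either. Of 15 measured RFX, Onecut and forkhead relatives 0 passed by limma in any comparison. Of all genes 1.09% passed for Pdx1-deficient against beta, 4.04% for alpha against beta and 0% for Pdx1-deficient against alpha. With 15 genes, 0 passing is near these shares. At an unadjusted p under 0.05 there were 4, 2 and 0 relatives in turn, against 21.8%, 20.7% and 6% of all genes. Rfx7, a widely expressed RFX gene, read 6.72 to 7.01 in alpha arrays and 5.65 to 6.63 in beta arrays. These groups did not overlap, as for 6.34% of all genes, and Rfx7 differed by 0.65 (SE 0.18, limma adjusted p = 0.0606). It passed in 2 of 23 alternatives. In Pdx1-deficient arrays Rfx7 read 6.29 to 6.97, a difference from beta of 0.43 (SE 0.18, limma adjusted p = 0.192). Foxp1, a forkhead factor that together with its paralogs supports postnatal alpha-cell growth in mice, differed from beta by 0.37 (SE 0.14, limma adjusted p = 0.15) in Pdx1-deficient and by 0.44 (SE 0.14, limma adjusted p = 0.0811) in alpha arrays, and passed in 0 and 2 of 23 alternatives.

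Most genes known as targets of these factors did not pass. Those that did were Ucn3 in Pdx1-deficient against beta arrays, and Ucn3, Slc2a2, Vil1, Hadh and Pdx1 in alpha against beta arrays, all lower than in beta arrays. Of 9 measured RFX6 targets, 1 fell and 0 rose in Pdx1-deficient against beta arrays, where 0.928% of all genes fell, and 2 fell and 0 rose in alpha against beta arrays, where 3.15% of all genes fell. Ucn3, the peptide hormone gene of mature beta cells, read 10.88, 9.34, 8.65, 7.92 and 7.44 in Pdx1-deficient replicates 1 to 5, 8.06 to 9.39 in alpha arrays and 10.95 to 11.50 in beta arrays. Both groups lay below every beta array, Pdx1-deficient replicate 1 by the least. Ucn3 fell by 2.28 in Pdx1-deficient arrays (SE 0.49, limma adjusted p = 0.0389, past the threshold in 5 of 15 leave-outs) and by 2.27 in alpha arrays (SE 0.49, limma adjusted p = 0.0203, 12 of 15). Without Pdx1-deficient replicate 1 Ucn3 fell by 2.79 in Pdx1-deficient arrays (limma adjusted p = 0.00288). Slc2a2, the glucose transporter gene that both RFX6 and HNF4A target lists hold, fell by 2.06 in alpha arrays (SE 0.53, limma adjusted p = 0.0442, 5 of 15 leave-outs). In Pdx1-deficient arrays Slc2a2 read 10.46 in replicate 1, above every beta array (9.28 to 10.19), and 6.71 to 7.94 in the other 4, all below them, and its difference was -1.83 (SE 0.53, limma adjusted p = 0.0915), or -2.44 without replicate 1 (limma adjusted p = 0.00395). The 9 measured beta-cell markers, a list that also holds Ucn3, Slc2a2 and Pdx1, averaged 8.93 to 10.36 in Pdx1-deficient (10.36 in replicate 1), 8.94 to 9.51 in alpha and 10.14 to 10.43 in beta arrays, and the part of this in the targets' differences was not tested. Between Pdx1-deficient and alpha arrays 0 of all 19938 genes passed, and so 0 genes of any target list. At an unadjusted p under 0.05 were 1 RFX6 target, 2 HNF4 and HNF1 targets and 1 FOXA target (6% of all genes).

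Of 9 measured HNF4 and HNF1 targets 0 passed in Pdx1-deficient against beta arrays (1.09% of all genes), with 3 at an unadjusted p under 0.05 (21.8% of all genes). In alpha against beta arrays 2 fell (3.15% of all genes), Slc2a2 and Vil1. Vil1, the gene of the microvillus protein villin, read 8.46, 7.68, 8.37, 7.49 and 8.34 in Pdx1-deficient replicates 1 to 5, 6.09 to 8.38 in alpha arrays and 8.77 to 9.42 in beta arrays. Every Pdx1-deficient and alpha array lay below every beta array. Vil1 fell by 2.14 in alpha arrays (SE 0.34, limma adjusted p = 0.00549, past the threshold in all 15 leave-outs), and its difference in Pdx1-deficient arrays was -0.99 (SE 0.34, limma adjusted p = 0.134). Of 5 measured FOXA targets 0 passed in Pdx1-deficient against beta arrays (1.09% of all genes), with 2 at an unadjusted p under 0.05 (21.8% of all genes). Pdx1, which is in this list, differed there by -1.39 (SE 0.34, limma adjusted p = 0.0575), and by -1.74 without Pdx1-deficient replicate 1 (limma adjusted p = 0.00617). In alpha against beta arrays 2 FOXA targets fell (3.15% of all genes). These were Pdx1 itself (by 1.28, SE 0.34, limma adjusted p = 0.0473, 3 of 15 leave-outs) and Hadh, an enzyme gene of fatty acid oxidation that restrains insulin secretion (by 1.71, SE 0.45, limma adjusted p = 0.0474, 1 of 15 leave-outs). Hadh read 9.48 to 10.28 in Pdx1-deficient, 6.65 to 10.06 in alpha and 9.78 to 10.34 in beta arrays. The alpha array at 10.06 was replicate 2, without which Hadh fell by 2.12 (limma adjusted p = 0.00348). Without alpha replicate 5, the one with the high acinar signal, Slc2a2 (-1.84, limma adjusted p = 0.102), Hadh (-1.54, limma adjusted p = 0.107), Pdx1 (-1.13, limma adjusted p = 0.107) and Ucn3 (-2.16, limma adjusted p = 0.0511) did not pass in alpha against beta arrays. Over all 15 leave-outs Slc2a2, Hadh and Pdx1 passed in 5, 1 and 3, and Ucn3 in 12. The falls of Slc2a2 and Pdx1 without alpha replicate 5 were the smallest of these leave-outs. The part of the acinar signal in this was not tested.

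Of 16 measured ciliary genes known as RFX targets 0 passed in any comparison by limma. The shares of all genes were 1.09% for Pdx1-deficient against beta, 4.04% for alpha against beta and 0% for Pdx1-deficient against alpha. At an unadjusted p under 0.05 there were 5 for Pdx1-deficient against beta (21.8% of all genes), 3 for alpha against beta (20.7% of all genes) and 2 for Pdx1-deficient against alpha (6% of all genes). In Pdx1-deficient minus beta 12 of 16 lay below 0, with a median of -0.29 where the median of all genes was 0.061. In alpha minus beta it was also 12 of 16, with a median of -0.21 where that of all genes was 0.041. Over just the genes brighter than the median of all cluster means (5.98), the medians of all genes were -0.074 and -0.070 in turn. The ciliary transport gene Ift172 read 6.20 to 6.52 in Pdx1-deficient and 6.60 to 6.92 in beta arrays, with no overlap, as for 5.96% of all genes. It differed by -0.44 (SE 0.13, limma adjusted p = 0.0945). Dync2li1, a subunit gene of the ciliary dynein motor, differed from beta by -0.64 in Pdx1-deficient (SE 0.21, limma adjusted p = 0.126) and by -0.64 in alpha arrays (SE 0.21, limma adjusted p = 0.109). The list mean was 7.32, 7.33 and 7.45 in Pdx1-deficient replicates 1 to 3 and 6.91 and 6.92 in replicates 4 and 5, against 7.26 to 7.61 in beta arrays.

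**Figure D4:**
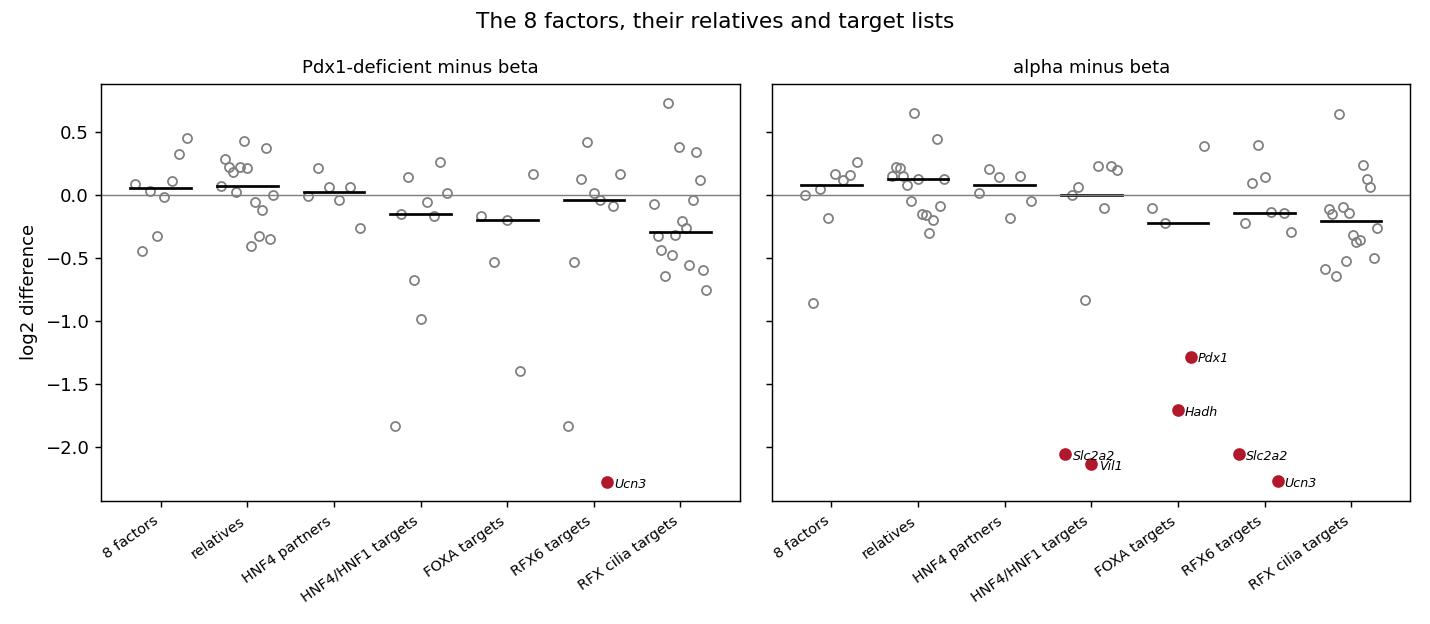
Log2 differences of the 8 factors, their relatives, HNF4 partners and known targets for Pdx1-deficient minus beta (left) and alpha minus beta (right). Each circle is a gene, filled and named where its limma adjusted p was under 0.05, and lines are list medians, and the 8 factors lie between -0.86 (Hnf4g) and 0.46 (Rfx3), while the named genes are targets lower than in beta arrays.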

How the data were processed

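Affymetrix Expression Console made the values, per the submitters' processing notes. The deposited values, 1 per transcript cluster and array, were taken as log2 signals because they ran from 2.11 to 13.45. No source used here gives the log base, the summarization, the background correction or the genome build, and a fold assumes base 2. The platform annotation gave 1 symbol for 21789 of 35556 clusters, several for 1621 and none for 12146. Where several clusters named a gene, the one with the highest average signal was read (19938 genes), and the 8 factors had 1 cluster each.

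Group means over all 15 arrays were fitted with limma 3.58.1 (lmFit, eBayes) in R 4.3.3. No block was used. Adjustment followed Benjamini and Hochberg over all genes, separately for each of the 3 comparisons. The fit was tested on simulated data with known changes and independent noise for each gene. These held no effects shared by the genes of an array, so how such effects act on the fit was not tested. Two-sided exact permutation tests of single genes are unadjusted. The number of arrays per group, 5, limits the precision. The members, lists and alternatives were chosen with earlier results of these data known. The named genes are the 8 factors, Pdx1, up to 4 genes of a list past the threshold or up to 2 with the lowest p where none passed, and for each factor the 2 genes with the highest Pearson r. Hormone genes were added as markers, Slc2a2, Vil1 and Rfx7 in Pdx1-deficient arrays for comparison. Some genes of the lists were not analysed here.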

Additional observations from a re-analysis of the deposited data

Results flagged for a closer look

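Onecut1 in beta replicate 5 read 6.99, where the other 4 beta arrays read 6.53 to 6.65. Its gap to the nearest array was 0.749 of the group's range, above the critical value of 0.710 for 5 samples. Of 24 groups (8 genes in 3 groups of arrays) 1 stood out in this way, and chance gives about 1 in 20.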

How the results depend on the processing

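In 0 of 549 values (24 differences of the 8 factors under up to 23 alternatives each) did a factor pass, with a lowest limma adjusted p of 0.0918 (Hnf4g, alpha against beta, without beta replicate 5), and 17 of the 24 differences kept their sign. With array medians subtracted, Pdx1-deficient minus beta turned to -0.012 for Hnf4a and -0.071 for Foxa1, and alpha minus beta to -0.039 for Foxa1. Quantile normalized again, Pdx1-deficient minus beta gave -0.088 for Foxa1 and 0.020 for Foxa3, and alpha minus beta gave 0.028 for Hnf4a and -0.055 for Foxa1. Without Pdx1-deficient replicate 1 and alpha replicate 2 together, Foxa3 gave 0.033 for Pdx1-deficient minus beta and Hnf4a 0.062 for alpha minus beta. Leave-outs of single arrays also turned small differences. For Pdx1-deficient minus beta they gave -0.034 to 0.13 for Foxa1 and -0.12 to 0.12 for Foxa3. For alpha minus beta they gave -0.092 to 0.067 for Hnf4a and -0.018 to 0.13 for Foxa1, and for Pdx1-deficient minus alpha -0.098 to 0.082 for Foxa1 and -0.062 to 0.074 for Onecut1. The cause was not tested. Of all genes, 217 passed for Pdx1-deficient against beta (14.7% of them higher). This count was 615 with array medians subtracted (4.23% higher), 29 quantile normalized again, 401 after removal of dim clusters, 121 under trended, robust moderation, 89 with only the 2 groups, 626 without both named arrays, and 0 to 548 over leave-outs (0 without Pdx1-deficient replicate 5, 548 without replicate 1). It was 1, 3, 4 and 4 without Pdx1-deficient replicate 4 and beta replicates 4, 1 and 5 in turn. With the replicate block it was 8. For alpha against beta 806 passed (22.1% higher), 1182 with array medians subtracted (10.4% higher), 1425 without both named arrays and 328 to 1430 over leave-outs (328 without alpha replicate 3, 1430 without alpha replicate 2). For Pdx1-deficient against alpha 0 passed, 1 after removal of dim clusters, 1 under trended, robust moderation, 177 without both named arrays and 0 to 145 over leave-outs (145 without alpha replicate 2). The labels do not say whether replicate numbers pair the samples. Correlations of same-numbered deviations from group means ran from -0.17 to 0.22, which cannot settle this with 5 arrays a group. The block left 0 factors past the threshold. Foxa1 was left out when dim clusters were removed.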

Other observations

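Of 6 measured partners of HNF4 proteins 0 passed by limma in any comparison, and 0 had an unadjusted p under 0.05. Of all genes 1.09% passed for Pdx1-deficient against beta, 4.04% for alpha against beta and 0% for Pdx1-deficient against alpha. An unadjusted p under 0.05 was found for 21.8%, 20.7% and 6% of all genes in turn. With 6 genes, 0 passing is near these shares. Med1, a Mediator subunit gene that nuclear receptors contact, read 7.19 to 7.89 in Pdx1-deficient arrays and 7.56 to 8.23 in beta arrays (difference -0.26, SE 0.14, limma adjusted p = 0.288). Nr0b2, a nuclear receptor gene whose product represses HNF4A, read 4.70 to 5.17 in Pdx1-deficient and 4.46 to 4.69 in beta arrays, at a dim signal (difference 0.22, SE 0.12, limma adjusted p = 0.29).

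The genes most like each factor over the 15 arrays, among 18408, were named by Pearson r as a description. For Rfx6 they were St18, a zinc-finger transcription factor gene (r 0.90), and the phosphatase gene Ptpn4 (0.88). For Rfx3 they were the RNA-binding protein genes Tia1 (0.95) and Ssb (0.93). Hnf4g ran most like the cytoskeletal linker gene Macf1 (0.92) and Ermp1 (0.92), and Hnf4a most like Fam43b (0.88) and Wbp1l (0.85). Foxa1 ran with Trim11 (0.92) and Prrt3 (0.91), Foxa2 with Pnrc1 (0.92) and Smdt1 (0.87), Foxa3 with Nat2 (0.83) and Rpph1 (0.80), and Onecut1 with B3gnt7 (0.93) and Nos3 (0.91).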
